A study of Homo sapiens with 12 samples.

Results

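The genes described here are 10 writers, erasers and readers of N6-methyladenosine (m6A), picked by symbol from the 60617 gene IDs of both deposited count tables, and all 10 were found. RNA was sequenced from 769-P, an established line of human clear cell renal carcinoma cells, grown in RPMI1640 with fetal bovine serum. Each siRNA experiment has 2 groups of 3 libraries, siDRAIC with siDRAIC-NC and sihnRNPA2B1 with sihnRNPA2B1-NC, which makes 12 libraries in 4 groups. The siRNA in each tested group is taken to target the long non-coding RNA DRAIC or the RNA-binding protein hnRNPA2B1, and each NC group is taken as the control of the siRNA it is named with. The sources used here do not give what NC stands for, or the siRNA sequences, doses and times. All groups share 1 cell line, and no source says whether the libraries of a group came from separate cultures, so p-values reflect the spread between libraries, and that spread may be technical.

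The m6A mark is a methyl group that writers put on adenosines of messenger RNA, that erasers take off and that readers bind. METTL3 is the catalytic subunit of the writer, METTL14 binds the substrate RNA beside it, and WTAP and VIRMA hold and guide that pair. FTO and ALKBH5 are the erasers. YTHDC1 reads the mark in the nucleus, YTHDF2 directs marked RNA to decay, and IGF2BP2 and IGF2BP3 are described as readers that stabilise it. The title of the series places hnRNPA2B1, itself described as a reader, and the m6A-modified RNA of the receptor IGF1R in this system, so the question asked here is how the RNA of the machinery stood in each group.

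Promoter windows from RefSeq on GRCh38.p14, each reaching from 250 bases before to 50 after an annotated start, were found for 9 of the 10 genes. Those of the 3 genes called after hnRNPA2B1 siRNA are shown because the results below turn on them. Capitals mark any match, on either strand, to the 6 motifs searched.
YTHDC1, chr4:68350041-68350340, minus strand: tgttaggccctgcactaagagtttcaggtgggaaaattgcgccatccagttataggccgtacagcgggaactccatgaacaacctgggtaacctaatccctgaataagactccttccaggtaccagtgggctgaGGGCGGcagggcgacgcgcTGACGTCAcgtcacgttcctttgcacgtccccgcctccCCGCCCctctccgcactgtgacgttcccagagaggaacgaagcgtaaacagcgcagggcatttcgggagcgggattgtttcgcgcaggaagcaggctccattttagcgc
IGF2BP3, chr7:23470442-23470741, minus strand: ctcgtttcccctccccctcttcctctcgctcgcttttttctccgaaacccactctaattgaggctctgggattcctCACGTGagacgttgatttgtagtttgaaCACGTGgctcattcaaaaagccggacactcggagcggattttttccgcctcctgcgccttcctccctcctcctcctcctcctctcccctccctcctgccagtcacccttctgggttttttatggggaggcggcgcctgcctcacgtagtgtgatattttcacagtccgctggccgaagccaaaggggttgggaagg
FTO, chr16:53703906-53704205, plus strand: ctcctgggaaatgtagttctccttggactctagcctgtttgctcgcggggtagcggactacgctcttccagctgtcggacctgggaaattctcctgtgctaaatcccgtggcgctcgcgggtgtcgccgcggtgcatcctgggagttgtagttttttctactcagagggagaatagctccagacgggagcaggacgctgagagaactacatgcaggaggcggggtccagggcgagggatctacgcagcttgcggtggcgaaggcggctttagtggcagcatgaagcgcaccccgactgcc

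The YTHDC1 window held the cAMP response element TGACGTCA at position 154, counted from 1 at the window's 5′ end, and GC boxes (GGGCGG or its reverse complement) at positions 135 and 192. The IGF2BP3 window held the E-box CACGTG at positions 77 and 105. The FTO window held none of the 6 motifs, which says only that these letters are not in it. Of 35116 promoter windows of the same length, 1.85% held the cAMP response element, 7.26% the E-box and 45% the GC box. The other motifs were the ETS site CCGGAAG (10.3% of windows), the palindromic NRF1 site (1.24%) and the NFY site CCAAT (34.6%). No matches in the printed windows overlapped each other, and a match is a description of sequence, not evidence of binding. The windows were 58.3% (YTHDC1), 56.3% (IGF2BP3) and 60% (FTO) G or C.

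The libraries held 30798303 to 42760528 counts. Levels are given as CPM (counts scaled to the library total), with mean ± SD over 3 libraries. HNRNPA2B1 averaged 291 ± 16.7 CPM in sihnRNPA2B1 and 420 ± 21.0 CPM in sihnRNPA2B1-NC (log2 fold change -0.56, edgeR adjusted p = 2.16e-09). Its exons overlap those of CBX3 on the other strand, and whether the counting used strand is not known. DRAIC had 9 counts in all 3 siDRAIC libraries together and 5 in all 3 siDRAIC-NC libraries, so the depth did not allow a knockdown to be seen and the libraries are called by their label. Renal identity was marked by PAX8 (436.7 to 500.3 CPM as group means), VIM and KRT8, whereas CA9, a hypoxia-induced marker of clear cell carcinoma, had 2 counts in all. The blood marker PTPRC and the hepatocyte marker ALB were at 0.313 CPM or less as group means. The lists of both cell types were mixed. SERPINA1, also a hepatocyte marker, was high, and the blood marker CSF1R had enough counts to be tested in siDRAIC over siDRAIC-NC. Of 13 markers of other cell types, SERPINA1 (30.5 to 293 CPM), the neuron marker NEFL (31.0 to 55.4) and the fibroblast marker COL1A1 (2.20 to 9.88) were the highest as group means. In siDRAIC over siDRAIC-NC 1 of 7 tested markers was called, beside 0.713% of all tested genes. It was COL1A1, which was higher (log2 fold change 1.91, edgeR adjusted p = 0.0462). All 7 had an unadjusted edgeR p below 0.05, 2 higher and 5 lower. Over all 15986 genes tested there, an unadjusted edgeR p of 0.0505 ranked 1726 from the smallest. In sihnRNPA2B1 over sihnRNPA2B1-NC 1 of 6 tested was called, beside 30.4% of all tested genes. It was SERPINA1, which was lower (-0.85, edgeR adjusted p = 1.40e-10). Between the controls 4 of 8 tested were called, beside 51.6% of all tested genes, SERPINA1 (-2.47) among them. The part of these genes in the results was not tested. In bulk RNA, fewer cells of a kind and less RNA per cell cannot be told apart.

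Levels can be compared between genes only per length. Over the union of annotated exons, ALKBH5 and YTHDF2 had the highest levels in every group. ALKBH5 averaged 30.5 ± 1.38 CPM per kb in siDRAIC, 36.9 ± 5.49 in siDRAIC-NC, 24.8 ± 1.01 in sihnRNPA2B1 and 26.9 ± 1.84 in sihnRNPA2B1-NC. YTHDF2 averaged 30.9 ± 0.724 CPM per kb in siDRAIC, 28.9 ± 1.10 in siDRAIC-NC, 37.2 ± 0.885 in sihnRNPA2B1 and 33.5 ± 0.272 in sihnRNPA2B1-NC. FTO and METTL14 were the lowest of the 10 in every group on this scale, with FTO at 1.16 to 2.43 and METTL14 at 2.03 to 3.42 CPM per kb as group means. These ranks depend on the exon model. With the length of the principal transcript instead, an alternative chosen after seeing the data, YTHDC1 ranked 3 in sihnRNPA2B1 (28.3 CPM per kb) and 2 in sihnRNPA2B1-NC (33.3), and METTL3 ranked 4 in both DRAIC groups.

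**Figure D1:**
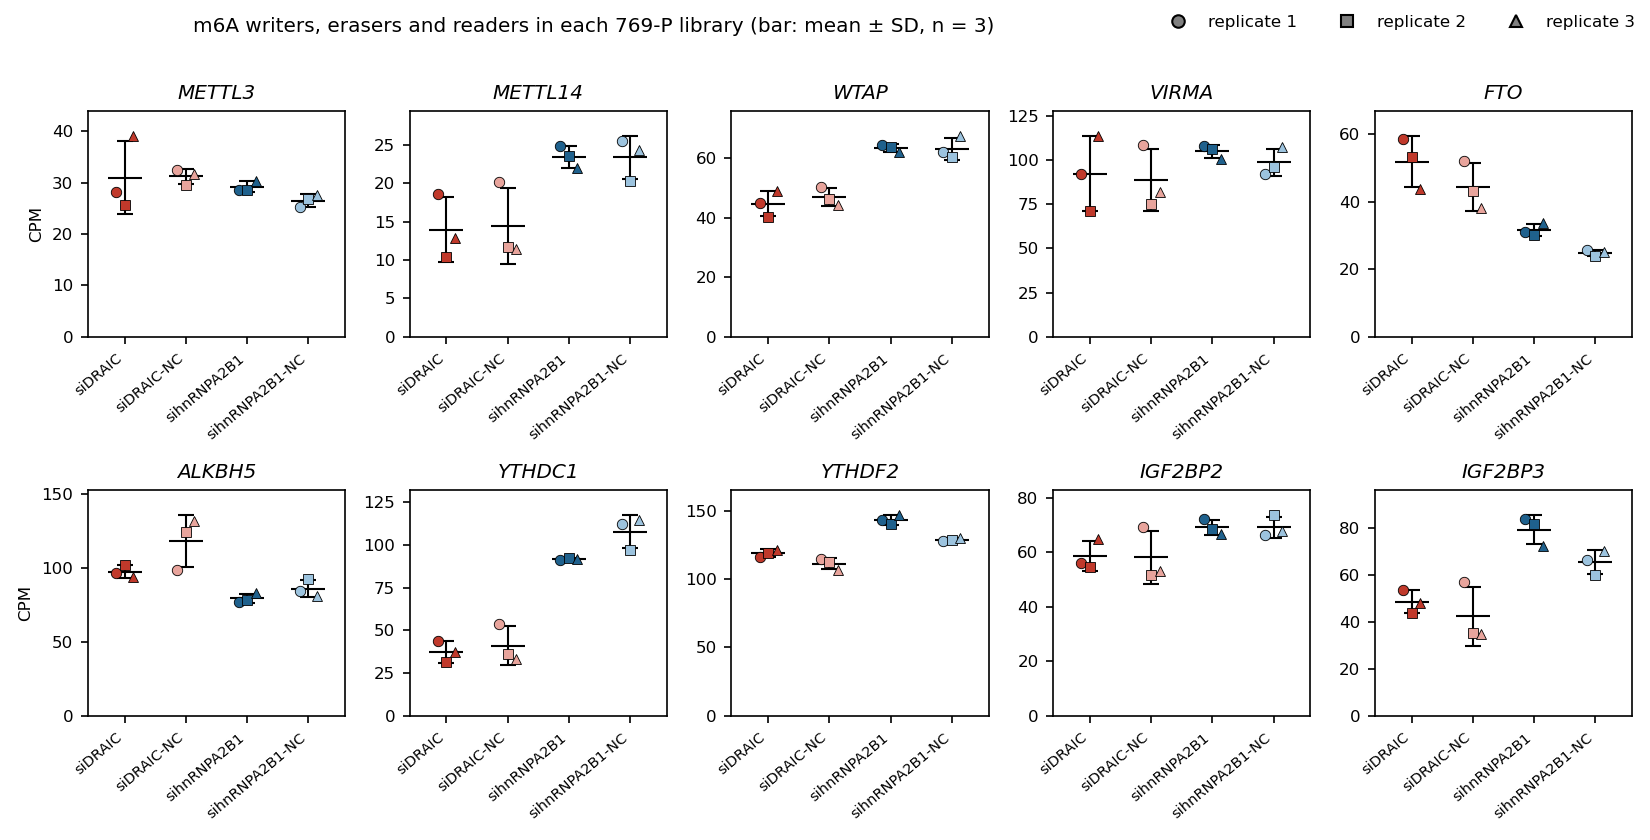
CPM of each of the 10 m6A genes (vertical axes, from 0) in the 12 libraries, by group (horizontal axis), with each library's replicate number as the point's shape and mean ± SD (n = 3) as the black bar. METTL3, FTO, YTHDF2 and IGF2BP3 lie higher and YTHDC1 lower in sihnRNPA2B1 than in sihnRNPA2B1-NC with no overlap, beside 42% of all tested genes. The siDRAIC and siDRAIC-NC points overlap for every gene but YTHDF2, where 15.6% of all tested genes do not overlap. The points leave out the TMM factors of the fit, with which the YTHDF2 groups overlap too.

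In the libraries labelled siDRAIC, none of the 10 genes differed from siDRAIC-NC beyond the spread between libraries. edgeR called 0 of 10 at an adjusted p below 0.05, and 0 had an unadjusted p below 0.05. DESeq2 and limma-voom also called 0. Over all 15986 tested genes 114 were called, or 0.713%, with 0.582% higher and 0.131% lower. Over the same 15986 genes an unadjusted edgeR p of 0.0505 ranked 1726 from the smallest, so nothing is read from the 0 of 10. The 10 log2 fold changes ran from -0.31 (ALKBH5) to 0.21 (FTO), with SEs of 0.15 to 0.26, and their median was -0.02 beside 0.00 over all tested genes. This is not evidence that the genes are alike in both groups, because the 95% intervals of the folds reached from 0.619 to 1.53.

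Among the writers, METTL3 (ENSG00000165819; chromosome 14, 21498133 to 21511375, minus strand) had 28.2, 25.7 and 39.1 CPM in siDRAIC, against 32.5, 29.6 and 31.7 CPM in siDRAIC-NC. The siDRAIC libraries spread below and above all 3 controls. METTL14 (ENSG00000145388; chromosome 4, 118685368 to 118715433, plus strand) had 18.6, 10.4 and 12.8 CPM in siDRAIC, against 20.2, 11.7 and 11.5 CPM in siDRAIC-NC. In both groups replicate 1 stood above the other libraries, and the groups overlapped. WTAP (ENSG00000146457; chromosome 6, 159725585 to 159756319, plus strand) averaged 44.7 ± 4.30 CPM in siDRAIC and 47.0 ± 3.03 CPM in siDRAIC-NC. VIRMA (ENSG00000164944; chromosome 8, 94487693 to 94553529, minus strand) averaged 92.1 ± 21.2 CPM in siDRAIC and 88.5 ± 17.7 CPM in siDRAIC-NC. Both genes' groups overlapped. The edgeR adjusted p-values of the 4 writers were 0.888 to 0.972.

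Both erasers overlapped between the groups. FTO (ENSG00000140718; chromosome 16, 53701692 to 54158512, plus strand) had 58.7, 53.1 and 43.7 CPM in siDRAIC, against 52.0, 43.1 and 38.1 CPM in siDRAIC-NC. The change of 0.21 on the log2 scale did not pass (SE 0.18, edgeR adjusted p = 0.750). ALKBH5 (ENSG00000091542; chromosome 17, 18183078 to 18209954, plus strand) had 96.5, 102 and 93.3 CPM in siDRAIC, against 98.0, 124 and 131 CPM in siDRAIC-NC. Control replicates 2 and 3 were above every siDRAIC library, and control replicate 1 lay among them. The ALKBH5 log2 fold change of -0.31 (SE 0.18) had the smallest p of the 10, with an edgeR adjusted p of 0.577, or 0.0691 without siDRAIC-NC replicate 1 (log2 fold change -0.46).

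Of the readers, YTHDC1 (ENSG00000083896; chromosome 4, 68310387 to 68350089, minus strand) had 43.8, 31.2 and 37.1 CPM in siDRAIC, against 53.9, 35.9 and 33.2 CPM in siDRAIC-NC. Each group's highest library was again replicate 1. YTHDF2 (ENSG00000198492; chromosome 1, 28736621 to 28769775, plus strand) had 116, 119 and 122 CPM in siDRAIC, against 115, 112 and 107 CPM in siDRAIC-NC. These CPM do not overlap, as was so for 15.6% of all tested genes. With the TMM factors of the fit (1.034 for siDRAIC replicate 1, 0.960 for siDRAIC-NC replicate 2) the groups overlap. The log2 fold change of 0.07 did not pass (SE 0.15, edgeR adjusted p = 0.909). IGF2BP2 (ENSG00000073792; chromosome 3, 185643739 to 185825056, minus strand) averaged 58.6 ± 5.58 CPM in siDRAIC and 58.1 ± 9.82 CPM in siDRAIC-NC. IGF2BP3 (ENSG00000136231; chromosome 7, 23310209 to 23470467, minus strand) had 53.8, 44.0 and 47.9 CPM in siDRAIC, against 57.0, 35.4 and 34.8 CPM in siDRAIC-NC. Control replicates 2 and 3 were below every siDRAIC library and replicate 1 was above them, with a log2 fold change of 0.18 (SE 0.20, edgeR adjusted p = 0.805).

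Control replicate 1 stood apart in CPM for most of these genes. Within siDRAIC-NC it had the highest CPM of the 3 libraries for 9 of the 10 and the lowest for ALKBH5. siDRAIC replicate 1 was the highest for 4. CPM leave out the TMM normalisation factors of the fit, which were 1.05 for siDRAIC-NC replicate 1 and 0.960 and 0.968 for replicates 2 and 3. With these factors it was not the highest for METTL3, WTAP or YTHDF2. How often this library ranked highest over all genes was not counted. Leaving siDRAIC-NC replicate 1 out gave 1035 calls over all genes in place of 114, and 0 of the 10 were among them. The same replicate numbers deviated together in this experiment, and with the number as a block 1404 genes were called, again with 0 of the 10. What sets replicate 1 apart was not tested.

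After hnRNPA2B1 siRNA, RNA of the eraser FTO and of the reader IGF2BP3 rose and RNA of the nuclear reader YTHDC1 fell, each by less than 1.5-fold. The other 7 were not called. Thus 3 of 10 passed, where edgeR called 30.4% of all 15710 tested genes (15.1% higher, 15.4% lower), so the share is close to the background and no writer was among them. The median log2 fold change of the 10 was 0.01, and 0.01 over all tested genes. The CPM of the groups did not overlap for 5 of the 10 (METTL3, FTO, YTHDF2 and IGF2BP3 higher, YTHDC1 lower), beside 42% of all tested genes.

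FTO had 31.2, 30.2 and 33.7 CPM in sihnRNPA2B1, against 25.6, 23.8 and 25.2 CPM in sihnRNPA2B1-NC. Every siRNA library was above every control. The fold was 1.24 (95% interval 1.12 to 1.39), a log2 fold change of 0.32 (SE 0.08, edgeR adjusted p = 0.00225). The gene shares exon positions with AC007347.2 on the other strand, and no source used here says whether the counting used strand.

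IGF2BP3 had 84.0, 81.7 and 72.5 CPM in sihnRNPA2B1, against 66.3, 60.1 and 70.2 CPM in sihnRNPA2B1-NC. The lowest siRNA library lay just above the highest control. The fold was 1.19 (95% interval 1.08 to 1.30), a log2 fold change of 0.25 (SE 0.07, edgeR adjusted p = 0.00507). Without sihnRNPA2B1 replicate 1 it was not called (log2 fold change 0.21, edgeR adjusted p = 0.0518). Exons of IGF2BP3 overlap those of MALSU1 on the plus strand.

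YTHDC1 had 91.2, 92.5 and 92.0 CPM in sihnRNPA2B1, against 112, 96.9 and 115 CPM in sihnRNPA2B1-NC. The siRNA libraries lay close together and all below the controls, of which replicate 2 was the lowest. The fold was 0.834 (95% interval 0.766 to 0.907), a log2 fold change of -0.26 (SE 0.06, edgeR adjusted p = 0.0012). No annotated exon of another gene overlaps those of YTHDC1.

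All 3 calls rest on the spread within this experiment alone. With all 12 libraries in 1 fit, which shares the wider spread of the DRAIC libraries, the edgeR adjusted p was 0.261 for FTO, 0.428 for YTHDC1 and 0.459 for IGF2BP3, and 283 genes were called in place of 4781. The coefficient of variation of the 10 genes within a group had a median of 12.4% in siDRAIC, 16.4% in siDRAIC-NC, 3.78% in sihnRNPA2B1 and 6.36% in sihnRNPA2B1-NC.

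**Figure D2:**
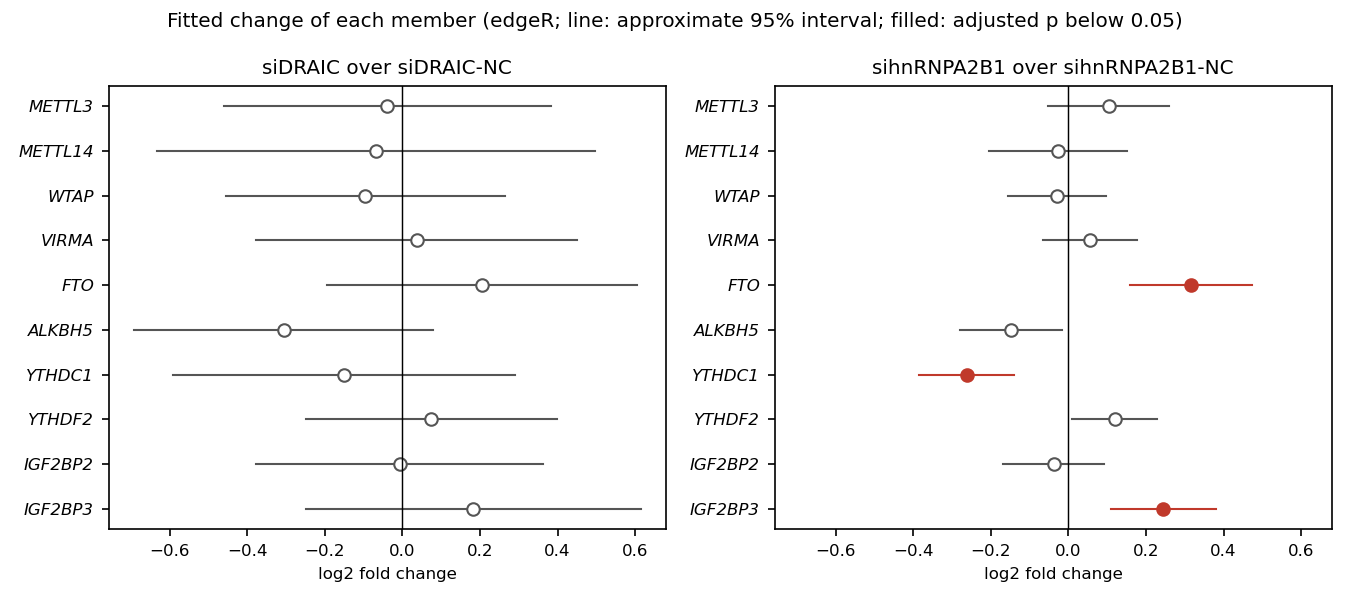
Log2 fold change of each of the 10 genes with its 95% interval, for siDRAIC over siDRAIC-NC and for sihnRNPA2B1 over sihnRNPA2B1-NC. Only FTO (0.32), IGF2BP3 (0.25) and YTHDC1 (-0.26) after hnRNPA2B1 siRNA pass an edgeR adjusted p of 0.05, and the siDRAIC intervals are the wider ones.

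The writers after hnRNPA2B1 siRNA stayed within narrow bounds. METTL3 had 28.6, 28.5 and 30.4 CPM in sihnRNPA2B1, against 25.2, 26.8 and 27.6 CPM in sihnRNPA2B1-NC. These groups do not overlap, but the log2 fold change of 0.10 did not pass (SE 0.08, edgeR adjusted p = 0.330). METTL14 averaged 23.5 ± 1.42 CPM in sihnRNPA2B1 and 23.4 ± 2.76 CPM in sihnRNPA2B1-NC. WTAP averaged 63.4 ± 1.23 CPM in sihnRNPA2B1 and 63.2 ± 3.70 CPM in sihnRNPA2B1-NC. VIRMA averaged 104.7 ± 3.67 CPM in sihnRNPA2B1 and 98.5 ± 7.87 CPM in sihnRNPA2B1-NC. The last 3 overlapped between the groups, and over all 7 genes not called the 95% intervals of the folds spanned 0.824 to 1.20. Exons of METTL3 overlap those of TOX4, and exons of WTAP overlap those of SOD2, on opposite strands.

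The eraser ALKBH5 had 76.9, 78.0 and 82.9 CPM in sihnRNPA2B1, against 84.4, 92.2 and 80.7 CPM in sihnRNPA2B1-NC. Only siRNA replicate 3 reached into the control range. The log2 change of -0.15 did not pass (SE 0.06, edgeR adjusted p = 0.0802), and it was called without sihnRNPA2B1-NC replicate 3 (-0.20, edgeR adjusted p = 0.00781). Exons of ALKBH5 overlap those of AC087164.1 on the other strand. The reader YTHDF2 had 143, 140 and 147 CPM in sihnRNPA2B1, against 128, 129 and 130 CPM in sihnRNPA2B1-NC. All siRNA libraries were above all controls, with a log2 fold change of 0.12 (SE 0.05, edgeR adjusted p = 0.0905). IGF2BP2 averaged 69.1 ± 2.69 CPM in sihnRNPA2B1 and 69.3 ± 3.87 CPM in sihnRNPA2B1-NC.

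Whether the changes in the libraries labelled siDRAIC differed from those after hnRNPA2B1 siRNA was tested directly on all 12 libraries, as the siDRAIC log2 fold change minus the sihnRNPA2B1 one. edgeR called 0 of the 10 genes, with 0 at an unadjusted p below 0.05, and 0.211% of all 17091 tested genes. Over those 17091 genes an unadjusted edgeR p of 0.0481 ranked 1519 from the smallest. DESeq2 and limma-voom called 0 of the 10 as well. The difference was -0.14 for FTO (SE 0.18, edgeR adjusted p = 0.878), -0.09 for IGF2BP3 (SE 0.21, 0.937) and 0.08 for YTHDC1 (SE 0.21, 0.944). ALKBH5 had the smallest p, with a difference of -0.20 (SE 0.19, edgeR adjusted p = 0.825). So the 3 calls made after hnRNPA2B1 siRNA are not shown to be particular to that siRNA.

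The larger contrasts lay between the control groups of the experiments. In sihnRNPA2B1-NC over siDRAIC-NC, 6 of the 10 genes passed, 4 higher and 2 lower, where edgeR called 51.6% of all 17091 tested genes (25% higher, 26.6% lower). The CPM of the 2 control groups did not overlap for 8 of the 10, beside 57.8% of all tested genes. YTHDC1 averaged 107.9 ± 9.57 CPM in sihnRNPA2B1-NC and 41.0 ± 11.3 CPM in siDRAIC-NC, a fold of 2.63 (95% interval 2.10 to 3.30, edgeR adjusted p = 2.63e-06). Its lowest library in sihnRNPA2B1-NC was above its highest in siDRAIC-NC. FTO averaged 24.9 ± 0.925 CPM in sihnRNPA2B1-NC and 44.4 ± 7.05 CPM in siDRAIC-NC, a fold of 0.558 (95% interval 0.459 to 0.677, edgeR adjusted p = 7.81e-05). For both genes this contrast between controls was larger than any siRNA contrast.

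IGF2BP3 averaged 65.5 ± 5.09 CPM in sihnRNPA2B1-NC and 42.4 ± 12.7 CPM in siDRAIC-NC (log2 fold change 0.63, edgeR adjusted p = 0.00239). METTL14 averaged 23.4 ± 2.76 CPM in sihnRNPA2B1-NC and 14.5 ± 4.98 CPM in siDRAIC-NC (log2 fold change 0.70, edgeR adjusted p = 0.0109), a call lost without siDRAIC-NC replicate 3 (0.58, edgeR adjusted p = 0.0536). WTAP was also higher (0.42, edgeR adjusted p = 0.00464) and ALKBH5 lower (-0.48, edgeR adjusted p = 0.00818) in sihnRNPA2B1-NC. Those not called were METTL3 (-0.25), IGF2BP2 (0.25), YTHDF2 (0.20) and VIRMA (0.15). METTL3 was called without siDRAIC replicate 3 (-0.25, edgeR adjusted p = 0.0490) and IGF2BP2 without siDRAIC-NC replicate 1 (0.34, edgeR adjusted p = 0.0127).

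Other genes moved with the same contrast. The kidney cadherin CDH6 had a log2 fold change of -3.78, CA12 -2.33, MYC 1.50 and HNRNPA2B1 -0.90 in sihnRNPA2B1-NC over siDRAIC-NC. PAX8 was at 0.03. Experiment, batch and control siRNA cannot be told apart here.

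**Figure D3:**
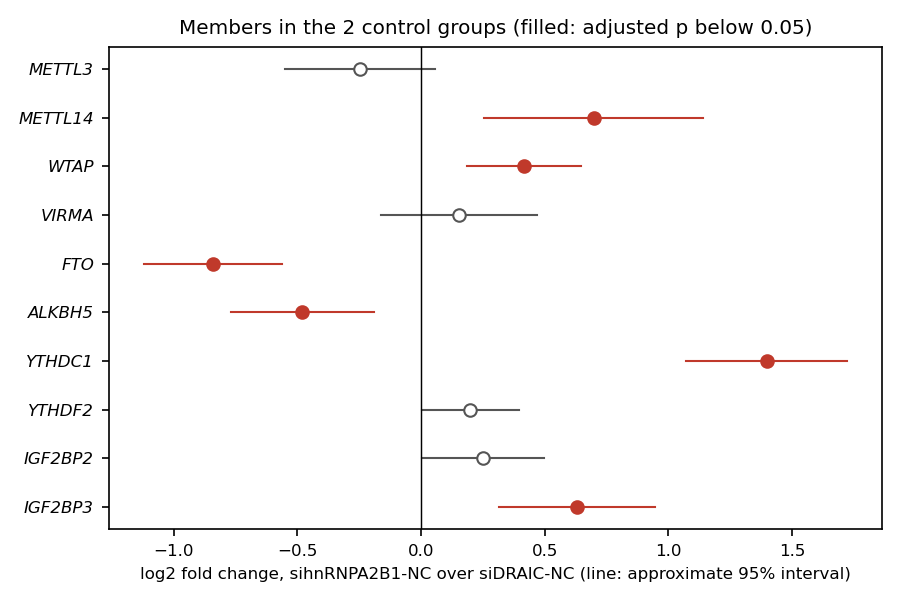
Log2 fold change of each of the 10 genes with its 95% interval, sihnRNPA2B1-NC over siDRAIC-NC, from the fit of all 12 libraries. YTHDC1 (1.40) and FTO (-0.84) lie at the ends, and 6 of 10 pass an edgeR adjusted p of 0.05.

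The rest of the machinery was read from lists of other writer genes, other readers, the S-adenosylmethionine (SAM) cycle that supplies the methyl group, and the CCR4-NOT deadenylase that YTHDF2 recruits. In siDRAIC over siDRAIC-NC, edgeR called 0 genes of any of these lists, beside 0.713% of all tested genes. Tested were 9 other writers, 13 other readers, 10 SAM genes and 11 CCR4-NOT genes. With so low a share over all genes, nothing is read from the 0. The unadjusted p was below 0.05 for 1 other writer, 1 CCR4-NOT gene and 0 in the other lists, and DESeq2 called 0. As an unadjusted edgeR p of 0.0505 ranked 1726 over all 15986 tested genes, nothing is read from these counts either. With the replicate number as a block, edgeR called 1404 of all 15986 tested genes. Among them was 1 other writer, ZC3H13, which fell (log2 fold change -0.58, edgeR adjusted p = 0.0125). ZC3H13, a zinc finger protein of the writer complex, is named here after its values were seen. It had 63.2, 18.8 and 8.43 CPM in siDRAIC, against 71.3, 24.8 and 18.8 CPM in siDRAIC-NC, so replicate 1 was far above the others in both groups. In sihnRNPA2B1 and sihnRNPA2B1-NC the same gene stayed between 67.3 and 87.5 CPM. Without siDRAIC-NC replicate 1, edgeR called TRMT112 (-0.53, adjusted p = 0.0413) and CNOT9 (-0.56, adjusted p = 0.0295) lower in siDRAIC. That fit called 1035 of all 16535 tested genes.

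After hnRNPA2B1 siRNA, 1 of 9 other writers fell and 0 rose, beside 30.4% called over all tested genes. It was TRMT112, the partner of methyltransferases including METTL5, with 77.3, 87.4 and 84.6 CPM in sihnRNPA2B1, against 96.4, 100.3 and 99.6 CPM in sihnRNPA2B1-NC. The siRNA libraries were all lower (log2 fold change -0.28, SE 0.06, edgeR adjusted p = 0.000613), and its exons overlap those of ESRRA on the other strand. Of 13 other readers 2 rose and 2 fell, a share close to the 30.4% called over all tested genes. That share includes the siRNA target HNRNPA2B1, whose fall says nothing about the list. LRPPRC, an RNA-binding protein of mitochondria, rose (0.20, edgeR adjusted p = 0.00454), as did the translation initiation subunit EIF3A (0.17, 0.0141). HNRNPC, whose RNA binding is altered by m6A, fell (-0.14, 0.0268), as did the siRNA target HNRNPA2B1 itself. Leaving out single libraries gave 1 to 7 calls in the reader list, with 7 without sihnRNPA2B1-NC replicate 3, 1 without sihnRNPA2B1-NC replicate 1, and 2 without sihnRNPA2B1 replicate 1 or 2.

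In the SAM cycle 3 of 9 tested genes rose and 1 fell, beside 15.1% and 15.4% of all tested genes. MAT2A, which makes SAM from methionine, had 343, 355 and 368 CPM in sihnRNPA2B1, against 274, 263 and 280 CPM in sihnRNPA2B1-NC. All siRNA libraries were higher, with a fold of 1.28 and a log2 fold change of 0.35 (SE 0.05, edgeR adjusted p = 4.14e-06). Its regulatory partner MAT2B rose (0.18, edgeR adjusted p = 0.0265), as did AHCYL1 (0.18, 0.00722), a relative of AHCY, whereas AHCY, which clears S-adenosylhomocysteine, fell (-0.18, 0.0114). The SAM list's median was 0.10, beside 0.01 over all tested genes. Without sihnRNPA2B1 replicate 2, 1 of these calls (MAT2A) was left.

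Of 11 CCR4-NOT genes 1 rose and 2 fell, likewise close to the 30.4% called over all tested genes. CNOT9 had 73.7, 69.7 and 71.0 CPM in sihnRNPA2B1, against 89.2, 90.1 and 88.0 CPM in sihnRNPA2B1-NC, with no overlap (log2 fold change -0.35, SE 0.06, edgeR adjusted p = 3.02e-05). CNOT11 also fell (-0.18, edgeR adjusted p = 0.0253), and the deadenylase CNOT7 rose (0.15, 0.0387). Only CNOT9 was called with the replicate block, without sihnRNPA2B1-NC replicate 1, and without sihnRNPA2B1 replicate 1 or 2.

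RNAs known as clients of IGF2BP proteins were read as a further list. edgeR called all 4 tested clients lower after hnRNPA2B1 siRNA, beside 15.4% of all tested genes. The list was chosen with results of these data known and its genes are named after their values were seen, so nothing is read from that count. CD44, a surface receptor, averaged 836 ± 6.35 CPM in sihnRNPA2B1 and 979 ± 7.69 CPM in sihnRNPA2B1-NC (log2 fold change -0.26, edgeR adjusted p = 6.41e-05). ACTB fell as well (-0.27, edgeR adjusted p = 2.75e-05), as did MYC (-0.15, 0.0264) and HMGA2 (-0.15, 0.0388). With the replicate block MYC (edgeR adjusted p = 0.0617) and HMGA2 (0.0914) were not called. MYC and HMGA2 were also not called without sihnRNPA2B1-NC replicate 1 or without sihnRNPA2B1 replicate 1 or 2, MYC not without sihnRNPA2B1-NC replicate 2 and HMGA2 not without sihnRNPA2B1 replicate 3. IGF2 and LIN28B had too few counts to be tested. With all 12 libraries in 1 fit, HNRNPA2B1 was the 1 gene still called (edgeR adjusted p = 0.0284) among those named from these lists.

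IGF1R, the receptor named in the title, had 48.6, 47.7 and 50.4 CPM in siDRAIC, against 31.9, 20.1 and 26.1 CPM in siDRAIC-NC. The groups did not overlap, but the gene was not called (0.89 on the log2 scale, SE 0.19, edgeR adjusted p = 0.0538). It was called with the replicate block (0.91, edgeR adjusted p = 4.85e-06), in DESeq2 (0.87, adjusted p = 0.00237), with no low-count filter (0.87, 0.00529), in 1 fit of all 12 libraries (0.86, 0.00298) and without siDRAIC-NC replicate 1 (1.02, 0.00773). After hnRNPA2B1 siRNA, IGF1R averaged 27.8 ± 2.41 CPM in sihnRNPA2B1 and 22.6 ± 1.44 CPM in sihnRNPA2B1-NC, a log2 change of 0.26 (edgeR adjusted p = 0.0188) whose call was lost in 1 fit of all 12 libraries (0.382), without sihnRNPA2B1-NC replicate 1 (0.126), sihnRNPA2B1 replicate 1 (0.0889) or sihnRNPA2B1 replicate 3 (0.104).

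**Figure D4:**
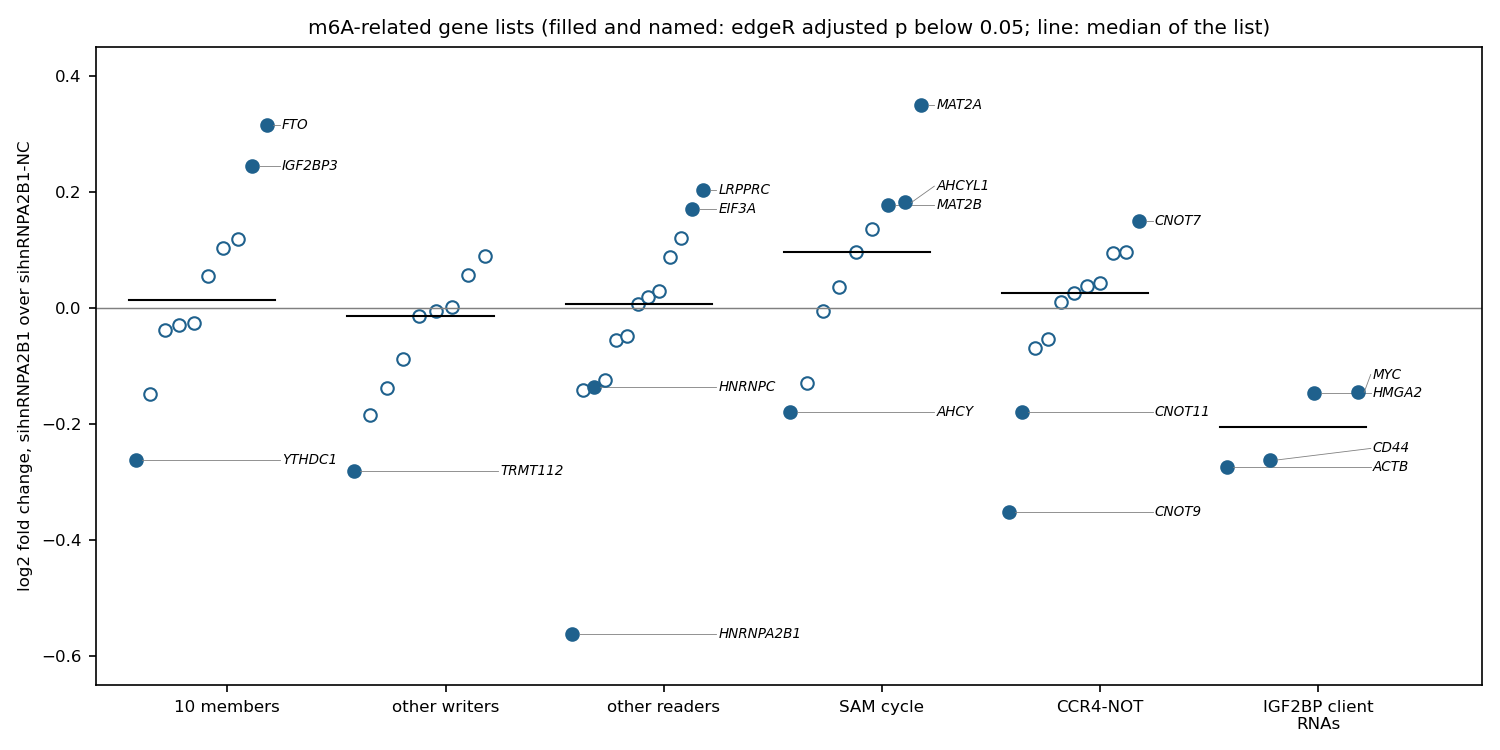
Log2 fold change, sihnRNPA2B1 over sihnRNPA2B1-NC, of every tested gene in the 10 m6A genes and 5 related lists (1 column each), filled and named where the edgeR adjusted p is below 0.05, with each list's median as a black line. MAT2A (0.35) and FTO (0.32) are the highest and HNRNPA2B1 (-0.56) and CNOT9 (-0.35) the lowest of the points shown.

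Likeness across libraries was measured as Pearson's r of log2 CPM over the 12 libraries, each centred on the mean of its own experiment. It is a description, since the libraries share depth, replicate and siRNA effects. Within the 10 genes, METTL14 and YTHDC1 were most alike (r = 0.840) and ALKBH5 and IGF2BP3 most opposed (r = -0.907). Replicate 1 of siDRAIC-NC was its group's highest library for METTL14, YTHDC1 and IGF2BP3 and its lowest for ALKBH5. The part of that library in these values was not tested. Over 17091 genes, those most like YTHDC1 included SETDB2 (0.964) and HELLS (0.948). Those most like IGF2BP3 were UBE2Q2 (0.975), FBXO38 (0.973) and PTPN13 (0.973). FTO was followed by ZMYM3 (0.941), TEAD3 (0.933) and PLA2G6 (0.928).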

How the data were processed

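Raw counts per Ensembl gene, deposited by the authors as whole numbers in 1 table per siRNA experiment, were used as they stand. Per the labels' protocols, RNA came from RNAiso Plus extraction and a Tru-seq library kit. The submitters' processing notes name hg38 as the build and, among the tools, STAR 2.7.10a, fastp 0.23.2, DESeq2 and StringTie. No source used here gives the counting program, its annotation or its use of strand, so reads of overlapping genes cannot be told apart. Of 60617 IDs, 60261 were paired with a symbol, 0 lines named no gene and 0 sample columns were unused. Coordinates and exon lengths are from GENCODE 29 on GRCh38.

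Each experiment was fitted with edgeR 4.0.16 in R 4.3.3 (filterByExpr with a minimum count of 10, TMM, robust quasi-likelihood test, two-sided, Benjamini-Hochberg over all tested genes, called at an adjusted p below 0.05). The difference of effects and the contrast of controls used all 12 libraries with 4 group means. SEs are approximate, from the F statistic. Libraries of a group differed beyond sampling noise (chi-square per degree of freedom 4.94 to 139.8), so none was taken as a copy. Intervals reflect the spread between 3 libraries per group. The fit was tested on simulated data, with planted changes larger than those of the 10 genes in either siRNA comparison and no replicate pairs.

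Alternatives were RLE factors, DESeq2 1.42.0, limma-voom (limma 3.58.1), no low-count filter, 1 CPM in 3 libraries, a block for the replicate number, 1 fit of all 12 libraries and each library left out. Same-numbered libraries deviated together in the DRAIC experiment (r = 0.489, 0.227 and 0.277), which is known from the data only. The fits as reported held no block, so their siDRAIC SEs, intervals and p-values leave this pairing out. Only the alternative with the replicate block took the numbers as pairs.

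The 10 genes and all lists were chosen with earlier results of these data known. All 10 are named in each comparison. A gene of the other lists is named with values where it was called in a siRNA comparison, up to 4 per list by smallest p. HNRNPA2B1, DRAIC and IGF1R are named from the title, and the 3 most alike genes are named for each called member, except where 1 is not reported here. Further genes named were picked with their values in view.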

Additional observations from a re-analysis of the deposited data

How the results depend on the processing

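Of 1023 alternative values, 892 kept their direction and side of the threshold, 63 lost the threshold, 11 gained it, 36 changed sign and 21 counts moved by over 1.5 times. No result called in the fits as reported changed sign. After hnRNPA2B1 siRNA, 1 fit of all 12 libraries called 0 of the 10 m6A genes in place of 3. Its construction shares the spread of the DRAIC libraries. IGF2BP2 changed sign in siDRAIC over siDRAIC-NC with the filter of 1 CPM in 3 libraries (0.00382). Its difference of effects changed sign with RLE factors (0.00968), DESeq2 (0.00934), no low-count filter (0.00835) and the filter of 1 CPM in 3 libraries (0.0353). The cause was not tested.

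Leaving out each library in turn gave 0 called of the 10 in siDRAIC over siDRAIC-NC, 2 to 4 in sihnRNPA2B1 over sihnRNPA2B1-NC, 0 for the difference of effects and 5 to 7 between the controls. The log2 fold changes that crossed 0 then ranged, in siDRAIC over siDRAIC-NC, over -0.227 to 0.0486 (METTL3), -0.311 to 0.193 (METTL14), -0.130 to 0.165 (VIRMA), -0.289 to 0.0423 (YTHDC1), -0.0832 to 0.0910 (IGF2BP2) and -1.45 to 0.386 (ZC3H13). In sihnRNPA2B1 over sihnRNPA2B1-NC they ranged over -0.112 to 0.0375 (METTL14), -0.0531 to 0.00779 (WTAP) and -0.0725 to 0.0194 (IGF2BP2). For the difference of effects they ranged over -0.283 to 0.183 (METTL14), -0.221 to 0.124 (VIRMA), -0.0282 to 0.266 (YTHDC1), -0.0798 to 0.0869 (IGF2BP2) and -0.196 to 0.115 (IGF2BP3).

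With the replicate block the calls among the 10 were 0, 3, 0 and 6, as without it. The block changed calls in the wider lists, where 1 in place of 0 other writers was called in siDRAIC, and 3 in place of 4 other readers, 3 in place of 4 SAM genes, 1 in place of 3 CCR4-NOT genes and 2 in place of 4 IGF2BP clients after hnRNPA2B1 siRNA. In the hnRNPA2B1 experiment the same-numbered pairs gave r of -0.0117, -0.0242 and -0.0456. No library there correlated best with its own number, so no shared deviation was seen. Whether same-numbered libraries were grown or handled together is not known, and these values cannot tell.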
